A study of Chlorocebus aethiops with 12 samples.

Results

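The 17 RefSeq accessions here each had a microarray probe well above background in no vehicle-treated sample and in every dexamethasone (Dex) sample. They were taken from 18772 accessions of the NM_ type, which RefSeq gives to protein-coding transcripts, carried by 26742 probes of the array. A probe was chosen where the scanner software had flagged it as not well above background on all 6 vehicle arrays and as well above background on all 6 Dex arrays. The chosen probes numbered 18 and belonged to 18 accessions, of which the rule leaves out 1. The flags that chose the accessions come from the comparison of Dex with vehicle, so the levels and Dex changes of the 17 are given as a description without a test. The files used here pair no accession with a gene name or a sequence. At most 2 accessions are therefore named for their Dex rise and 2 for their values with MDFIC, and the others are numbered by rank.

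Dex is a synthetic agonist of the glucocorticoid receptor (GR), a nuclear receptor that rests in the cytoplasm in a complex with chaperones. On binding hormone it moves to the nucleus, binds DNA at glucocorticoid response elements or joins other transcription factors, and raises or lowers the transcription of its target genes. The receptor is phosphorylated at several serines after hormone binding, and the mutant S211A carries alanine in place of one of them. MDFIC is a MyoD family inhibitor domain protein that binds GR.

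COS-1 is a kidney line of the African green monkey, of fibroblast-like shape, that carries the large T antigen of a polyomavirus and is widely used for transient transfection of steroid receptors. The cells of all 4 groups received S211A by transfection with FuGENE6, either alone or with MDFIC, and charcoal-stripped serum, which is low in steroids. At 48 h after transfection, cells with S211A and cells with S211A+MDFIC received vehicle or 100 nM Dex for 6 h, with 3 biological replicates per group and 12 arrays in all. The series asks how MDFIC alters transcription by a receptor that cannot be phosphorylated at this site. Every group carried S211A, so the values are those of a transfected mutant receptor on the background of whatever receptor the cells hold. The probes are of a human design and the RNA is from a monkey. In these bulk samples fewer responding cells and less RNA per cell cannot be told apart.

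Detection moved with the slide as well as with the treatment. The 12 arrays lay on 3 slides of 4 arrays, and the flag for well above background was set for 67.8% to 71.2% of probes in S211A vehicle, 71.7% to 79.8% in S211A Dex, 76.2% to 77.3% in S211A+MDFIC vehicle and 77.6% to 80.6% in S211A+MDFIC Dex. Slide 1 carried all S211A vehicle arrays and S211A Dex replicate 1, and slide 3 carried all S211A+MDFIC Dex arrays and S211A+MDFIC vehicle replicate 3. The 4 others were on slide 2. The detection floor of an array, which is the lowest signal among its probes well above background, was higher on slide 1. On the scale used throughout, log2 signal relative to the 75th percentile of the array, the floor lay between -5.81 and -5.39 on slide 1. It lay between -6.37 and -6.04 on slide 2, and between -6.69 and -6.18 on slide 3. The part of the slide in the choice of the accessions was not tested beyond the values within slides and at 1 common floor given below.

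NM_147197 stood highest above background of the 17. Its processed signal was 5.5, 4.5 and 9.9 units on the S211A vehicle arrays and 81.4, 72.3 and 68.6 units on the S211A Dex arrays. In S211A+MDFIC cells it was 4.8, 7.0 and 7.5 units under vehicle and 89.1, 84.4 and 80.9 units under Dex. All 6 Dex arrays were far above all 6 vehicle arrays, and the Dex values of both receptor conditions overlapped. On the log2 scale its level was -7.02 ± 0.65 (SD, n = 3) under vehicle and -3.43 ± 0.15 under Dex in S211A cells, and -7.14 ± 0.40 and -3.36 ± 0.11 in S211A+MDFIC cells. The rise was at least 4.50-fold in S211A cells and at least 7.33-fold in S211A+MDFIC cells. A rise is given as a bound because the vehicle arrays had no signal well above background. For a bound, the mean Dex level is set against the mean over the vehicle arrays of the probe's own signal or the floor of the array, whichever is higher. A bound allows for unread vehicle signal but not for the spread between arrays, so it is not a confidence limit.

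NM_024600 came second by the smaller of its bounds. Its signal on the S211A arrays was 6.9, 13.3 and 6.2 units under vehicle and 66.4, 59.5 and 69.4 units under Dex. The S211A+MDFIC arrays read 13.8, 9.6 and 12.3 units under vehicle and 52.5, 54.1 and 41.7 units under Dex. The treatments did not overlap, and under Dex all 3 S211A+MDFIC arrays were dimmer than all 3 S211A arrays. Its level went from -6.62 ± 0.51 (SD, n = 3) to -3.62 ± 0.13 in S211A cells, a rise of at least 3.95-fold, and from -6.24 ± 0.17 to -4.14 ± 0.07 in S211A+MDFIC cells, a rise of at least 4.02-fold.

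The accession ranked 3 rose at least 2.78-fold in S211A cells and at least 4.60-fold in S211A+MDFIC cells, and that ranked 4 at least 2.34-fold and 2.89-fold. The bound reached 2-fold in 7 of the 17 accessions in S211A cells and in 12 of the 17 in S211A+MDFIC cells, including the 7. Its median was 1.60-fold in S211A cells, with a range of 1.01-fold to 4.50-fold. In S211A+MDFIC cells the median was 2.27-fold, from 1.33-fold to 7.33-fold. All 17 bounds were higher in S211A+MDFIC cells, where the vehicle arrays had floors of -6.31 to -6.18, against -5.71 to -5.39 in S211A vehicle. The fitted Dex change, which uses the measured vehicle signals in place of the floor, was larger with MDFIC in 8 of the 17.

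**Figure D1:**
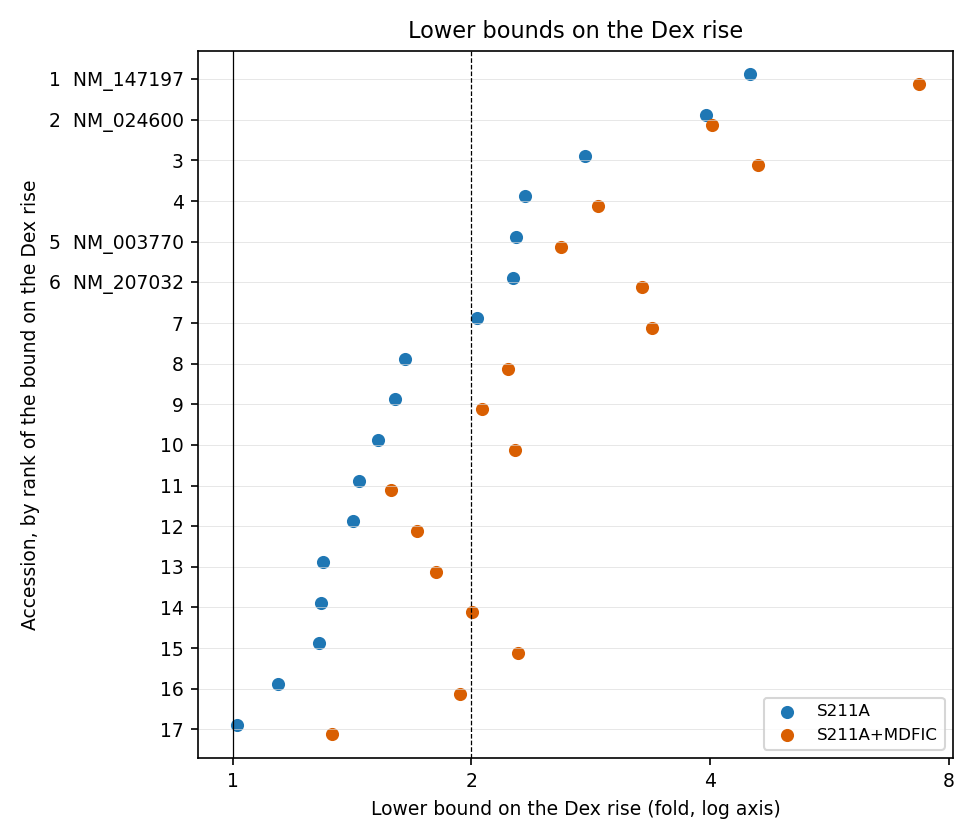
Lower bounds on the Dex rise (fold, log axis) of the 17 accessions, ordered by the smaller of the bounds, in S211A cells (blue) and S211A+MDFIC cells (orange); the solid line marks no change and the dashed line 2-fold. The orange points lie to the right of the blue points in all 17, from 1.33-fold to 7.33-fold against 1.01-fold to 4.50-fold. The floors that enter the bounds were lower on the S211A+MDFIC vehicle arrays, and the fitted Dex change was larger with MDFIC in 8 of the 17. The bounds make no allowance for the spread between arrays.

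The fitted Dex changes had a median of 1.91 on the log2 scale in S211A cells, with a range of 0.76 to 3.58, and a median of 1.89 in S211A+MDFIC cells, with a range of 0.58 to 3.78. The medians over all 31230 probes tested were 0.02 and 0.03. In limma, 14 of the 17 passed an adjusted p of 0.05 as rises in S211A cells, where 4.17% of all probes tested did, and 15 in S211A+MDFIC cells, where 5.5% did. These counts support nothing, since the rule had asked for the rise. With slide as a fixed block 9 and 8 of the 17 passed, where 1.69% and 1.58% of all probes tested did. The slide-block change in S211A cells rested on slide 1, with 1 Dex array. That in S211A+MDFIC cells rested on slide 3, with 1 vehicle array. The size of a change below the floor differed with the normexp background correction. Starting signal, correction and offset changed together there, and their separate parts were not tested. The normexp correction started from median spot signals in place of the processed signals and added an offset of 50 units. An offset of that size shrinks the log2 changes of dim signals. With it the median changes were 0.20 and 0.35, and NM_147197 stood at 0.84 and 0.98. In that fit 6 and 8 of the 17 passed, where 2.31% and 4.36% of all probes tested did.

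All 17 accessions had every Dex array above every vehicle array on the log2 scale, which was also true of 4.99% of all probes tested. The gap between the lowest Dex array and the highest vehicle array was over 1 in 7 accessions and under 0.2 in 5. It was 2.76 for NM_147197, 2.03 for the accession ranked 3 and 1.85 for NM_024600. For the accession ranked 8 it was 0.04, between S211A vehicle replicate 2 at -5.73 and S211A+MDFIC Dex replicate 3 at -5.69. The accession ranked 10 had a gap of 0.05, with S211A vehicle replicate 1 at -5.43 and S211A Dex replicate 1, on the same slide, at -5.38.

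**Figure D2:**
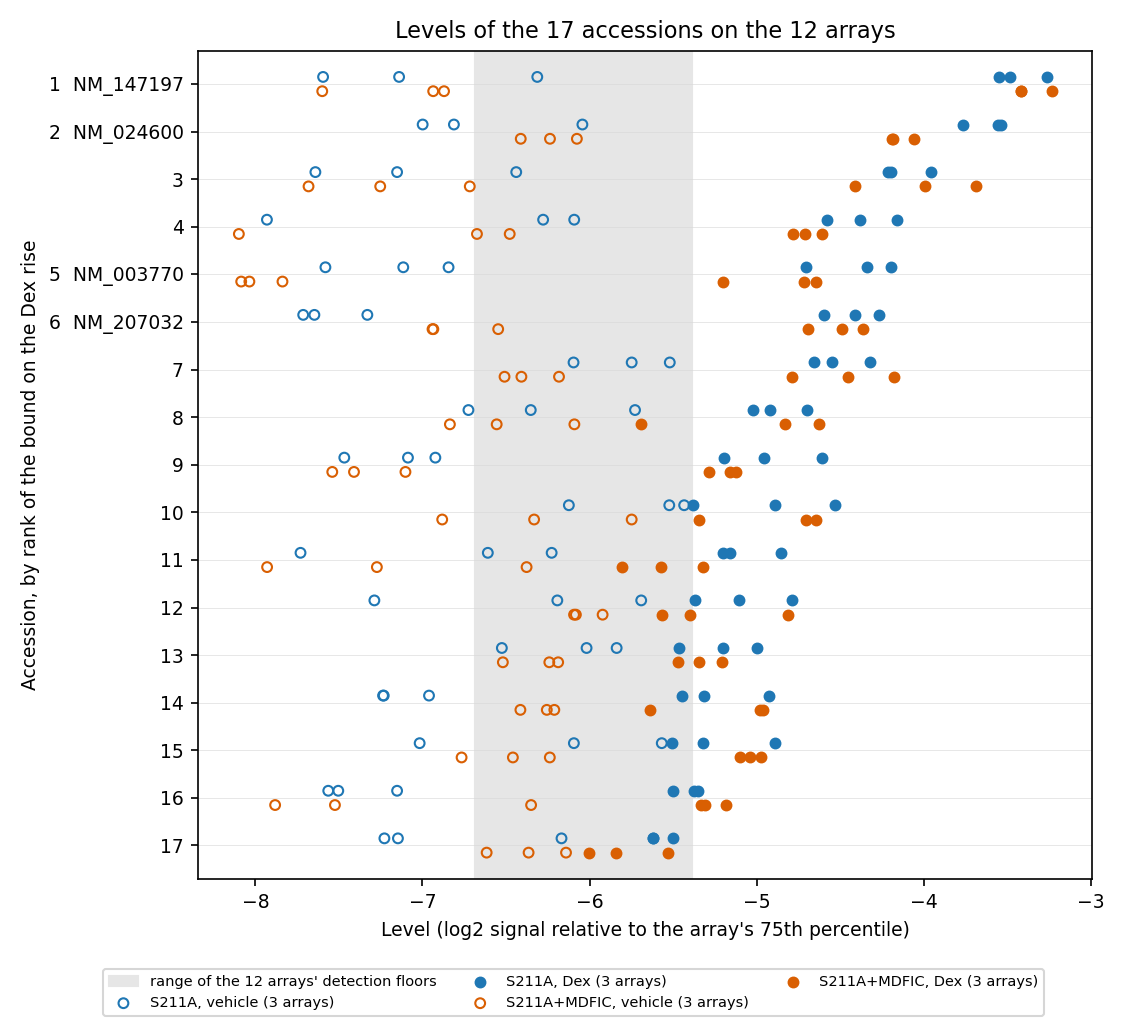
Levels of the 17 accessions on each of the 12 arrays (log2 signal relative to the 75th percentile of the array), with open circles for vehicle, filled circles for Dex, blue for S211A and orange for S211A+MDFIC; the grey band spans the arrays' detection floors, -6.69 to -5.39. NM_147197 is separated by 2.76, while the accessions ranked 8 and 10 are separated by 0.04 and 0.05 and several accessions have Dex circles inside the band.

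Within each slide the same order was found. On slide 1 the S211A Dex array was above all 3 S211A vehicle arrays in 17 of 17 accessions, with a median difference of 2.00 on the log2 scale and a range of 0.31 to 3.76. On slide 3, which held the 3 S211A+MDFIC Dex arrays and 1 S211A+MDFIC vehicle array, all 3 were above it in 17 of 17, with a median of 1.71 and a range of 0.57 to 3.65. Slide 2 held 2 S211A Dex and 2 S211A+MDFIC vehicle arrays, so that Dex and MDFIC cannot be told apart there. The median was 1.85. The median over all probes tested was -0.01, 0.05 and 0.03 on the 3 slides. The rule used all of these arrays, so the order within slides is a description. The differences on slides 1 and 3 are the same comparisons as the Dex changes with slide as a fixed block, not a separate check.

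The signals were dim also under Dex. Over the 17 accessions and the 6 Dex arrays they ran from 14.7 to 89.1 units, where the floors of these arrays were 10.3 to 13.9 units. The vehicle signals ran from 2.98 to 19.1 units, where the floors of the vehicle arrays were 11.05 to 18.5 units. None of these vehicle signals was at 0. A weaker flag, which marks a signal as positive and significant against its local background, was set on all 6 vehicle arrays in 10 of the 17 accessions and on at least 1 vehicle array in each of the others. NM_003770 had that flag on 1 vehicle array and NM_207032 on 3. The accessions were therefore not shown to be absent under vehicle.

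The accessions dimmest under Dex were those ranked 11, 16 and 17. The accession ranked 17 was between -6.01 and -5.50 on the 6 Dex arrays, below the floor of -5.39 of S211A vehicle replicate 1 on all of them, and its bound in S211A cells was 1.01-fold. In all, 8 of the 17 had at least 1 Dex array below that floor. With this highest floor as the detection limit for all 12 arrays, a setting chosen after the data were seen, 23 accessions met the rule and 9 of the 17 were among them, namely those ranked 1 to 7, 9 and 10. The reverse pattern, dim on all Dex arrays and bright on all vehicle arrays, was met by 1 accession at this common floor and by 0 with the deposited flags.

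Just outside the rule were 56 NM_ probes that missed 1 of the 12 required flags. For 22 of them the miss was S211A Dex replicate 1, the Dex array on slide 1, and for 5 it was an S211A vehicle array. A further 23 were well above background on 1 of the S211A+MDFIC vehicle arrays. The 3 brightest under Dex of these 56 had mean Dex levels of -3.20, -4.09 and -4.47, and each was detected on 1 vehicle array, at -5.48, -5.41 and -4.92. Without S211A Dex replicate 1 the rule gave 39 accessions, and without S211A+MDFIC vehicle replicate 1 it gave 26. In S211A cells alone, 226 NM_ probes were dark on the 3 vehicle arrays and detected on the 3 Dex arrays, with 2 the other way. In S211A+MDFIC cells alone there were 96, with 11 the other way. The S211A count sets vehicle arrays of slide 1, where the floors were highest, mostly against Dex arrays of slide 2.

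Of the 17 accessions, 10 had 1 probe on the array and 7 had others, 8 in all. Detection only under Dex held for the chosen probe and not for every probe of these accessions. In 6 of the 7, another probe was well above background on at least 3 of the 6 vehicle arrays, and in 3 on all 12 arrays. The accession ranked 14 had another probe detected on all 12 arrays, at 0.99 ± 0.03 (SD, n = 3) in S211A vehicle and 0.84 ± 0.02 in S211A Dex, and at 0.94 ± 0.10 and 1.08 ± 0.10 in S211A+MDFIC cells. Its Dex change was -0.15 and 0.14 on the log2 scale, against 1.91 and 1.10 for the probe chosen by the rule. For the accession ranked 7, the brighter other probe stood at -2.35 ± 0.06 and -2.44 ± 0.22 (SD, n = 3) in S211A cells, a change of -0.08, where the chosen probe gave 1.28. In S211A cells this accession thus gave a flat reading at 1 probe and a rising reading at another. In S211A+MDFIC cells the brighter other probe went from -2.40 ± 0.08 to -2.12 ± 0.14. That was a change of 0.28, where the chosen probe gave 1.89.

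Other accessions had probes that moved in the same direction in both receptor conditions. The other probe of the accession ranked 9 changed by 1.28 and 1.03, against 2.24 and 2.16 for the chosen probe. The accession ranked 17 gave 1.26 and 1.92 at its other probe, which was detected on 5 vehicle arrays and had all 6 Dex arrays above all 6 vehicle arrays. The accession ranked 15 gave 0.52 and 0.29 at a probe detected on all 12 arrays, also with no overlap. In contrast, the other probe of the accession ranked 12 changed by 0.88 in S211A cells and by -1.13 in S211A+MDFIC cells, where its vehicle arrays had an SD of 1.47. The 2 remaining other probes, of the accessions ranked 7 and 13, were detected on no array. With accessions limited to those whose every probe was dark under vehicle, a setting chosen after the data were seen, 11 of the 17 were left. The 10 accessions with 1 probe, the 4 named here among them, met this limit by the rule itself. Agreement between probes could not be examined for them. The accession ranked 13 was the only one with another probe to meet it.

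**Figure D3:**
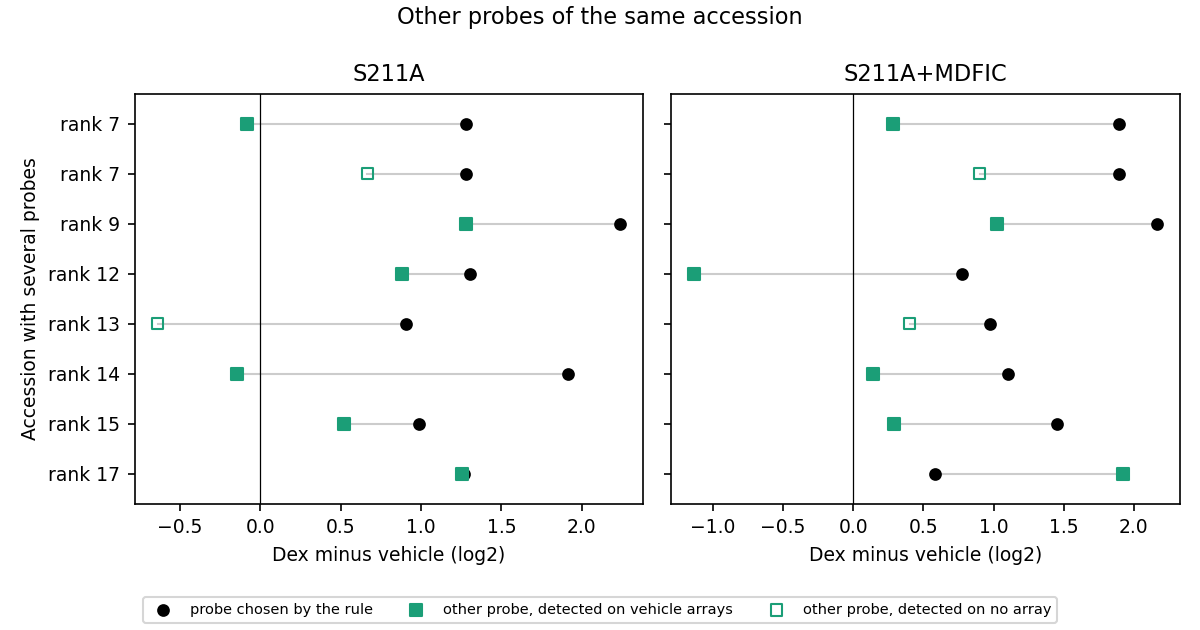
Dex minus vehicle (log2) in S211A cells (left) and S211A+MDFIC cells (right) for the 7 accessions with several probes, with black circles for the probe chosen by the rule and green squares for the other probes, open where the probe was detected on no array. For the accession ranked 14 the square lies at -0.15 and 0.14 and the circle at 1.91 and 1.10.

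The comparison of S211A+MDFIC with S211A cells under Dex asks whether MDFIC changed the level that these accessions reach with hormone. The rule asked for the same flags in both receptor conditions and did not use this contrast. It did ask for detection under Dex in both, so an accession undetected with or without MDFIC could not be among the 17. The counts passing here were limited by that choice. Of the 17 accessions, 10 were lower and 7 higher with MDFIC, with a median difference of -0.12 on the log2 scale, beside 0.00113 over all probes tested. In limma 0 of the 17 passed an adjusted p of 0.05, where 0.311% of all probes tested did, and 1 of the 17 had an unadjusted p under 0.05, as did 13.0% of all probes tested. The S211A Dex arrays lay on slides 1 and 2 and the S211A+MDFIC Dex arrays on slide 3, so that slide and MDFIC are not separated within any slide. With slide as a fixed block, 0 of the 17 passed and 0 had an unadjusted p under 0.05. No slide held both Dex groups, so that fit compares them indirectly. Each is set against vehicle-treated cells with MDFIC that shared its slide. For the 17 those vehicle signals were not well above background, and the rule had used them. The blocked counts therefore cannot decide whether MDFIC changed the level under Dex. With slide as a random block, 0 passed and 1 had an unadjusted p under 0.05.

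NM_024600 was lower with MDFIC under Dex by a log2 difference of -0.53 (SE 0.21, 95% interval -0.99 to -0.06, limma adjusted p = 0.339), in 3 of 3 arrays against all 3 S211A arrays. NM_003770 stood at -4.20, -4.70 and -4.34 in S211A Dex and at -4.72, -4.65 and -5.20 in S211A+MDFIC Dex, and the groups overlapped. Its difference was -0.44 (SE 0.21, 95% interval -0.91 to 0.03, limma adjusted p = 0.405). Without S211A+MDFIC Dex replicate 3 it was -0.27. With normexp correction the differences of NM_024600 and NM_003770 were -0.31 and -0.16. For NM_147197 the difference was 0.07, with an interval of -0.58 to 0.73, and for NM_207032 it was -0.09, with an interval of -0.42 to 0.24. The groups did not overlap in 4 of the 17 accessions, beside 15% of all probes tested. The intervals had half-widths of 0.33 to 1.13, and in 2 accessions, those ranked 4 and 11, the interval reached past a 2-fold difference. With 3 arrays per group, a difference could exceed its half-width and still miss the adjusted threshold, as that of NM_024600 did. The absence of calls does not show equal levels.

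**Figure D4:**
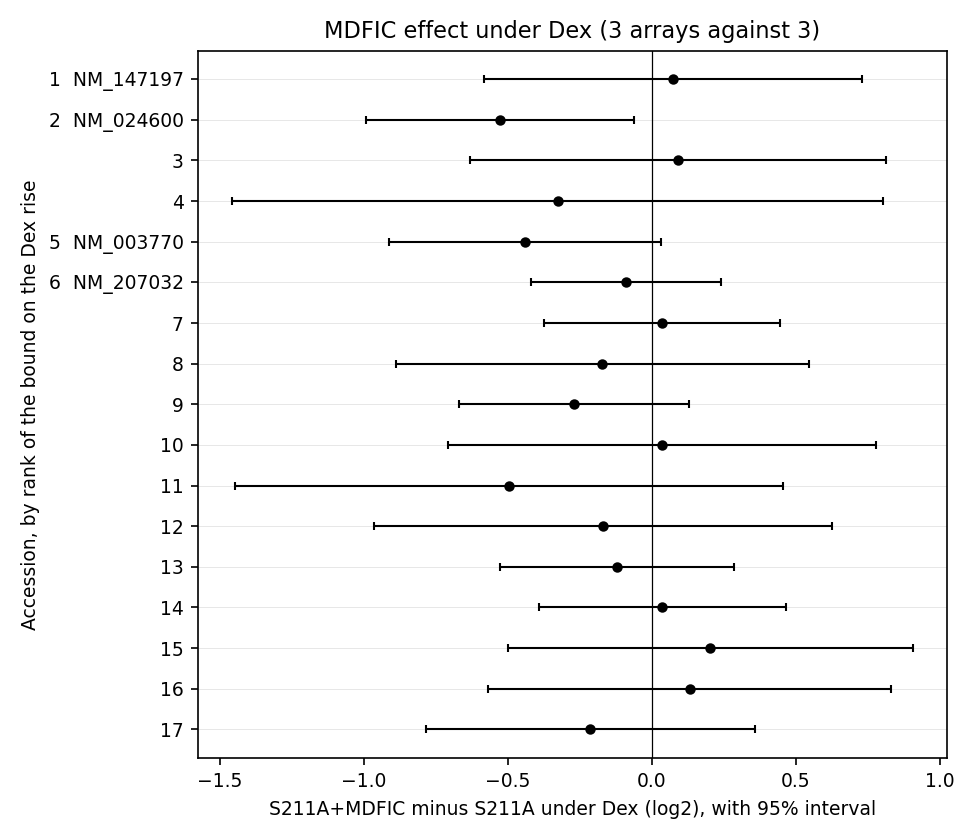
S211A+MDFIC minus S211A under Dex (log2) for the 17 accessions, with points for the fitted difference of 3 arrays against 3 and bars for the 95% interval from limma. The interval of NM_024600, from -0.99 to -0.06, lies below 0, and the other 16 intervals include 0.

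Whether the 2 receptor conditions differed in their response to Dex was tested as an interaction in the same fit. An accession whose flags changed in S211A cells alone or in S211A+MDFIC cells alone could not be among the 17, which limits this test. For these accessions the interaction rests on vehicle signals that were not well above background, so the vehicle levels behind a fitted difference are uncertain. The weaker flag was set on all 6 vehicle arrays in 10 of the 17. In limma 0 of the 17 passed, where 0.195% of all probes tested did, and 4 had an unadjusted p under 0.05, as did 9.31% of all probes tested. The median difference was -0.01 on the log2 scale. NM_207032 had the smallest p of the 17, with a difference of -0.85 (SE 0.21, 95% interval -1.31 to -0.38, limma adjusted p = 0.251). Its levels under Dex were -4.43 ± 0.17 (SD, n = 3) in S211A and -4.52 ± 0.16 in S211A+MDFIC cells, and overlapped. Under vehicle they were -7.56 ± 0.21 and -6.81 ± 0.23, both below the floor of each array. The difference thus came from vehicle signals without the flag for well above background. For NM_024600 the difference was -0.90 (SE 0.29, 95% interval -1.56 to -0.24, limma adjusted p = 0.417). Without S211A vehicle replicate 2, its brightest S211A vehicle array, it stood at -1.19 and passed (limma adjusted p = 0.0232); over all alternatives its adjusted p ran from 0.0232 to 0.999. With normexp correction the difference was -0.10 for NM_024600 and -0.01 for NM_207032.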

How the data were processed

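Per the file headers, the authors scanned each array in 1 pass and deposited intensity values made with Feature Extraction 12.0.0.7, background-subtracted and detrended over the array but not scaled between arrays, with flags of 0 or 1 for detection and outliers. The submitters' processing notes give version 12. The authors' table of the whole series holds the same intensity values. The 1639 control spots were left out, 945 outlier spots were set to missing (0 of them on the 17 probes), and 0 spots were saturated. Signals were taken to log2, spots of a probe averaged, and the 75th percentile of each array subtracted.

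A probe was tested where at least 1 group had it well above background on its 3 arrays and each group had at least 2 values (31230 of 41000). A probe, not an accession, was the unit, since the rule works on probes. Contrasts of 4 group means over 12 arrays were fitted with limma 3.58.1 in R 4.3.3, two-sided, with Benjamini-Hochberg adjustment, 95% intervals and a threshold of 0.05 on the adjusted p. The fit was tested on simulated data. The number of arrays limits the precision. Figures used matplotlib 3.10.9.

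The accessions and tests were chosen with earlier results of these data known. The rule for named genes and the gene and marker lists asked for symbols; the lists, the labelled cell type, the promoter motifs and the levels of the transfected genes were not analysed here. In their place 2 accessions with the highest smaller bound of the 2 receptor conditions and the next leading values with MDFIC were named, after their values had been seen. The alternatives were other background corrections, scalings, filters and probe choices, slide or replicate number as a block, each array left out, and other detection rules.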

Additional observations from a re-analysis of the deposited data

How the results depend on the processing

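The 17 accessions kept a positive fitted Dex change in both receptor conditions under all 24 alternative fits, except with 1 probe per accession, which put another probe in place of the chosen one and gave 15 of 17 in S211A cells. The rule had asked for the rise on these same arrays, so the kept direction supports nothing. The median change in S211A cells was 1.91; it was 0.20 with normexp, 1.52 with quantile normalization, 1.39 with 1 probe per accession, and 1.83 to 2.10 over the leave-outs of 1 array. In S211A+MDFIC cells it was 1.89, and 0.35, 1.67 and 1.63 under the same settings, 1.71 with slide as a fixed block and 1.66 to 2.03 over the leave-outs. The rule gave 5 accessions with the weaker detection flag, none of them among the 17, 73 with 1 exception allowed, 22 with all identifiers, 17 to 39 over the leave-outs, 11 where other probes had to be dark under vehicle, and 23 at a common floor. For MDFIC under Dex limma called 0 of the 17 in every fit. The fit with slide as a fixed block cannot decide this, since it links the Dex groups through vehicle signals not well above background. For the interaction limma called 0 to 1 of the 17 over the leave-outs and 0 elsewhere. Over all probes, the calls for MDFIC under Dex ran from 8 with only the compared groups in the fit to 650 without S211A+MDFIC Dex replicate 2, against 97, with 14 for slide as a fixed block. Those for the interaction ran from 0 to 152, against 61. Replicate numbers showed no clear pairing of the arrays: same-numbered arrays correlated with r of -0.25 to 0.24, over 0.1 in 4 of 18 pairs, and 4 of 12 arrays correlated best with their own number. Some same-numbered arrays shared a slide and others did not, so these correlations cannot show that the arrays were unpaired. With the replicate block the counts were 0 and 0, the medians 1.91 and 1.89, and the calls over all probes 64 and 25. Signal under vehicle below the detection threshold limits each Dex rise to a bound, which makes no allowance for the spread between arrays.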
